A study of Mus musculus with 12 samples.

Results

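The 10 genes described here prepare and carry peptides for MHC class I molecules: Tap1, Tap2 and Tapbp, B2m and H2-K1, Psmb8, Psmb9 and Psmb10, and Psme1 and Psme2. They were chosen by name, as every non-control probe whose gene name on the array was one of these 10, which gave 13 of 55681 probes and 10 of the 23909 features tested. All 10 were measured on single-colour arrays. The cells were RAW264.7, a macrophage line that was transformed by Abelson leukaemia virus in a BALB/c mouse. The groups, of 3 arrays each, were cells given an siRNA against lincRNA-Tnfaip3 with LPS, the same siRNA without LPS, a scrambled control siRNA with LPS, and the control siRNA alone. Every group carried an siRNA for 24 h, and the LPS groups were then exposed to 1 µg/ml of the E. coli product for 4 h. No untransfected cells were analysed here, so both arms of each comparison had been exposed to an siRNA. Nothing in the labels ties the 3 arrays of a group to separate cultures, so the p-values below rest on a spread between samples that may be no more than technical.

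MHC class I molecules show peptides from the cell's own proteins to cytotoxic T cells. The proteasome cuts the proteins, the TAP transporter carries the peptides into the endoplasmic reticulum, and a loading complex places them on a heavy chain paired with beta-2 microglobulin. Cells exposed to interferons replace the constitutive catalytic subunits of the proteasome with inducible ones, which changes the peptides made. LPS, a bacterial cell wall component sensed through TLR4, makes macrophages secrete type I interferon.

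The positions of the probes on mm9, the build of the array files, placed 6 of the 10 genes on chromosome 17. Within that region the Psmb9 probe (34319174 to 34319233, minus strand), the Tap1 probe (34330854 to 34330913, plus strand), the Psmb8 probe (34337771 to 34337830, plus strand) and the Tap2 probe (34353116 to 34353175, plus strand) followed one another. The Tapbp probe lay at 34065963 to 34066022 and the 2 H2-K1 probes at 34133055 to 34133114 and 34133984 to 34134043. The B2m probe was on chromosome 2 (121978401 to 121978460), the Psmb10 probe on chromosome 8 (108459677 to 108459736), and the Psme1 probe on chromosome 14 (56200194 to 56200253). The 3 Psme2 probes also lay on chromosome 14, at 56206296 to 56206355, 56208888 to 56209346 and 56209736 to 56429032. The last of these spans 219297 bases in the files although the probe has 60 bases, so what it measures is less certain than for the others. The 60-base probes of 3 neighbours of the chromosome 17 cluster are shown because they carry the Tap1 result and those of 2 inducible catalytic subunits. All 3 are written 5′ to 3′ as the array files give them.
Tap1 probe: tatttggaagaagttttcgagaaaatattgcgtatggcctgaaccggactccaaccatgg
Psmb8 probe: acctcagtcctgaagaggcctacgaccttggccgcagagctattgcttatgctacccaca
Psmb9 probe: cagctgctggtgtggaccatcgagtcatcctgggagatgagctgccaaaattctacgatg

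Promoter windows from RefSeq (GRCm38.p6, 250 bases before to 50 after the start) were matched for 9 of the 10 genes, all but Tap2. The windows of Tap1 and Psmb9 faced each other on opposite strands: their start sites were 226 bases apart and 275 of the 300 bases were shared. The interferon-stimulated response element core (GAAA and GAAA with any 2 bases between), the gamma-interferon activation site (TTC and GAA with any 3 bases between) and the kB site (GGG and CC with any 5 bases between) were searched on both strands, and matches of the kB pattern can overlap each other. A gene was counted when any of its windows matched, whereas the shares are of single windows. The response element core was present in 2 of the 9 genes, B2m and Psme1, against 3.44% of all 32851 windows in the table. The activation site was present in 1 of 9, Psmb8, against 8.3% of windows. The kB site was present in 6 of 9 (Tap1, B2m, H2-K1, Psmb9, Psme1 and Psme2), a pattern loose enough to occur in 50.8% of windows. The kB matches of Tap1 and Psmb9 were the same sites read on opposite strands, so 1 stretch of DNA entered this count for both genes. No match was found for Tapbp or Psmb10, which says only that these letters are not in their windows. In B2m the response element core at -139 to -130 stood next to overlapping kB matches from -127 to -117, counted from the start site as 0. The 250 bases upstream of 4 genes are shown, since they hold the stretch between Tap1 and Psmb9, the paired matches of B2m, the kB matches of H2-K1 and the activation site of Psmb8. Capitals mark every match to any of the 3 motifs, and the sequences are written 5′ to 3′ on the strand of the gene; for H2-K1, which has 2 annotated starts, the first window is given.
Tap1 promoter, chr17:34187306-34187555, + strand: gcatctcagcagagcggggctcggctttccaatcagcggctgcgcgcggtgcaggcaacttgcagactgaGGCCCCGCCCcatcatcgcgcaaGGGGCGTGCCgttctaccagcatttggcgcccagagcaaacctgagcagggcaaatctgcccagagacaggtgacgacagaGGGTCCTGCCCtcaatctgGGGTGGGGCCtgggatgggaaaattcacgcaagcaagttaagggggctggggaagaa
B2m promoter, chr2:122147437-122147686, + strand: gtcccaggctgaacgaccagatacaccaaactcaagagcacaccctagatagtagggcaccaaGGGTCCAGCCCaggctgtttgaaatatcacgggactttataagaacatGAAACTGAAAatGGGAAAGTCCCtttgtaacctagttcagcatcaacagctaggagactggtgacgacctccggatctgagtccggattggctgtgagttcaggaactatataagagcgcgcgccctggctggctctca
H2-K1 promoter, chr17:34000334-34000583, - strand: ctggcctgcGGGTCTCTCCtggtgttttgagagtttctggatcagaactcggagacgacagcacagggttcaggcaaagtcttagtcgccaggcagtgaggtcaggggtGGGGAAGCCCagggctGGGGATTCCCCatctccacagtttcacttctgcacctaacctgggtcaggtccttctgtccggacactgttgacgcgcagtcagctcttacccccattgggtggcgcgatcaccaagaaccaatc
Psmb8 promoter, chr17:34197945-34198194, + strand: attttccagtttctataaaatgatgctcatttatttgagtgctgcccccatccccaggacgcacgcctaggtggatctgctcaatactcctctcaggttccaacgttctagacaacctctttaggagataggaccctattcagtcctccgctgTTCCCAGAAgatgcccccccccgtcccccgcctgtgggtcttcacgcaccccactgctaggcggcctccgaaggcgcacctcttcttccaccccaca

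Each array held 59305 non-control spots, of which 29481 and 31833 were well above background on control-siRNA arrays 1 and 2, and 35200 to 39072 on the other 10. No spot was saturated, and the number of arrays limits the precision of every value. No probe was named for lincRNA-Tnfaip3, so the loss of the siRNA's target was not measured and the group names say which siRNA was given. Of 9 macrophage markers, 8 (among them Csf1r, Cd68 and Adgre1) were well above background on all 12 arrays and Mertk on 1. Of 14 markers of other cell types, 4 were well above background on all 12 arrays (Cd3e, Cd79a, Pecam1 and Zbtb46), 7 on some and 3 on none (Cd3g, Klrb1c and Epcam). The arrays lay on 3 slides. Control-siRNA arrays 1 and 2 had slide 1 to themselves, as arrays 2 and 3 of the LPS-treated lincRNA-siRNA group had slide 3. The other 8, with all 4 groups among them, shared slide 2.

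By its brightest probe, each of the 10 genes was well above background on all 12 arrays. Values are log2 of the probe's signal relative to the 75th percentile of its array, and are compared only within a gene. Repeat spots of 1 probe on an array differed little. The SD over the 7 to 10 Tap1 spots used on an array was 0.0515 to 0.140. For the 10 spots of H2-K1 it was 0.0448 to 0.116. The 3 arrays of the lincRNA siRNA without LPS did not behave alike for these genes. Array 1 of that group was the lowest of the 3 for 10 of 10 genes, while 36.4% of all features were lowest on it. Array 1 of the control siRNA with LPS was the lowest of its group for 9 of 10 genes, against 33.3% of all features. In units of each gene's SD over the 12 arrays, the mean of the 10 genes was 0.82, 0.89 and 0.84 with the lincRNA siRNA and LPS, and -1.47, 0.12 and 0.29 with the lincRNA siRNA alone. It was 0.10, 0.81 and 0.94 with the control siRNA and LPS, and -1.14, -1.06 and -1.14 with the control siRNA alone. Array 1 of the lincRNA siRNA alone was thus as low as the unstimulated control arrays, and arrays 2 and 3 of that group lay between those and most of the LPS arrays. Whether a difference between cultures or between hybridisations accompanies this split was not tested, and the results that use this group are given with and without array 1.

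**Figure D1:**
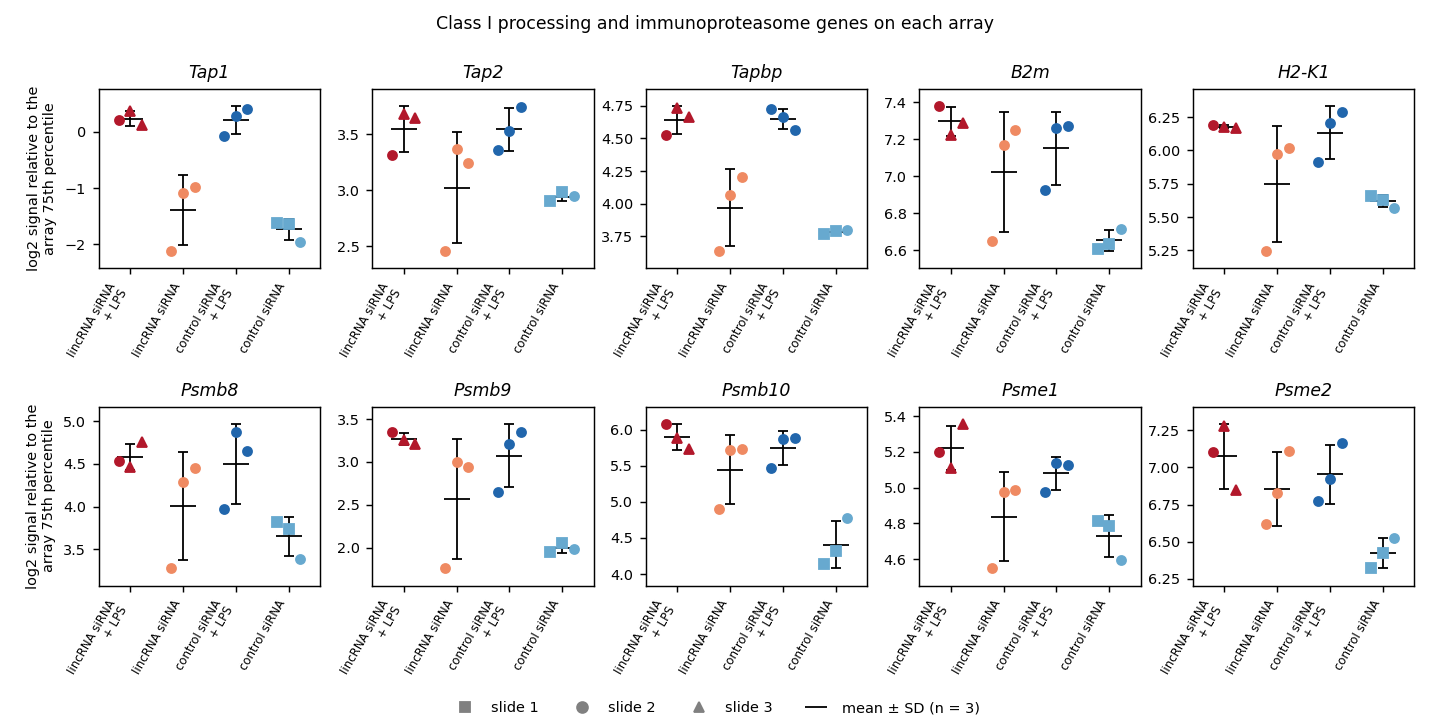
Log2 signal of each gene relative to the 75th percentile of the array (vertical axis) on each of the 12 arrays, with the LPS groups left of the unstimulated ones for each siRNA. Points are arrays in replicate order, their shape gives the slide, and the bar and whiskers are the mean and SD of 3 arrays. In each panel the first array of the lincRNA siRNA without LPS is the lowest of its group, and the 3 control-siRNA arrays all lie below the 3 control-siRNA arrays with LPS.

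The first comparison asked how LPS changed these genes in cells given the control siRNA. Tap1, Psmb10 and Tapbp rose, by 3.83-fold, 2.53-fold and 1.82-fold, and no member fell. All 10 log2 changes were positive, and for all 10 genes the 3 LPS arrays lay above the 3 unstimulated ones. By limma with Benjamini-Hochberg adjustment 3 of 10 members passed, against 5.09% of all features (3.21% of features rose and 1.88% fell). Of all features, 14.6% had LPS arrays that all lay above the unstimulated ones and 15.4% had them all below. The median log2 change was 0.72 for the 10 genes and 0.06 for all features. In bulk cultures, more cells expressing a gene and more RNA per cell cannot be told apart.

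Tap1 and Tap2 form the peptide transporter. Tap1 was at -0.07, 0.28 and 0.40 on the control-siRNA arrays with LPS, and at -1.61, -1.64 and -1.95 without LPS. The groups were far apart, with a log2 change of 1.94 ± 0.27 (SE) and an adjusted p of 0.00288. It ranked 288 from the highest among the 23909 log2 changes. Tap2 was at 3.36, 3.53 and 3.74 with LPS, and at 2.90, 2.99 and 2.94 without. Its groups did not overlap either, but the change of 0.60 ± 0.22 did not pass (adjusted p = 0.148). Tapbp encodes tapasin, which bridges the transporter and the class I molecule. Tapbp was at 4.72, 4.66 and 4.57 with LPS, and at 3.77, 3.79 and 3.80 without. Both sets of 3 were tight, and the change was 0.86 ± 0.14 (adjusted p = 0.00686).

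B2m, the light chain of every class I molecule, was at 6.92, 7.26 and 7.27 with LPS, and at 6.61, 6.64 and 6.72 without, a change of 0.50 ± 0.16 (adjusted p = 0.113). H2-K1, a classical heavy chain, was at 5.91, 6.20 and 6.29 with LPS, and at 5.66, 5.63 and 5.57 without, a change of 0.51 ± 0.19 (adjusted p = 0.15). Both were higher on every LPS array, and neither passed. The second H2-K1 probe gave 4.42, 4.26 and 4.67 with LPS, and 3.83, 3.89 and 3.98 without, a change of 0.55 ± 0.16 (adjusted p = 0.0973 with all probes tested one by one). Class I heavy chain genes resemble one another closely and the line carries BALB/c alleles. How much either feature alters the H2-K1 signal was not tested.

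Psmb8, Psmb9 and Psmb10 are the catalytic subunits that the cell puts into the immunoproteasome. Psmb10 was at 5.48, 5.87 and 5.89 with LPS, and at 4.13, 4.32 and 4.77 without, a change of 1.34 ± 0.25 (adjusted p = 0.0146). Psmb9 was at 2.65, 3.21 and 3.35 with LPS, and at 1.95, 2.05 and 1.98 without, a change of 1.08 ± 0.30 (adjusted p = 0.0744). Psmb8 was at 3.98, 4.88 and 4.65 with LPS, and at 3.82, 3.74 and 3.39 without, a change of 0.85 ± 0.32 (adjusted p = 0.151). Psmb10 alone of these 3 passed, and the first LPS array was the lowest of its group for each of them. Psmb9 and Tap1 share a promoter region, and their changes were 1.08 and 1.94. Psme1 and Psme2 encode the alpha and beta subunits of the PA28 activator, which caps the proteasome. Psme1 was at 4.97, 5.14 and 5.13 with LPS, and at 4.81, 4.79 and 4.60 without, a change of 0.35 ± 0.14 (adjusted p = 0.167). Psme2 was at 6.77, 6.92 and 7.16 with LPS, and at 6.32, 6.42 and 6.53 without, a change of 0.53 ± 0.16 (adjusted p = 0.0979). Both sets of arrays were apart without passing. The other Psme2 probes gave changes of 0.29 ± 0.15 (adjusted p = 0.262) and 1.63 ± 0.43 (adjusted p = 0.0652), the larger one from the probe with the long span. That probe was dim, at -3.69, -4.48 and -3.94 without LPS, and was not well above background on control-siRNA array 2.

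Slides and groups were partly confounded in this comparison, because 2 of the 3 control-siRNA arrays without LPS lay on a slide of their own. With slide as a block, which here gives the same estimates as slide 2 alone, all 10 changes stayed positive and 0 of 10 passed. Of all features, 227 passed with slide as a block and 49 on slide 2 alone, against 1216 without the block. Tap1 was then 2.15 (adjusted p = 0.076, and 0.245 on slide 2 alone), Tapbp 0.85 (0.177 and 0.413) and Psmb10 0.97 (0.426 and 0.649). The Psmb10 call also ended, with adjusted p of 0.065 to 0.0721 and changes of 1.20 to 1.29, without control-siRNA array 1 or 2, or without array 2 or 3 of the control siRNA with LPS. The number of members that passed was 7 when array 1 of the lincRNA siRNA alone was left out. Here that changes only the shared estimate of spread, and 1353 of 23909 features passed, against 1216 with all arrays. Tap2, B2m, H2-K1 and Psmb9 were added, with adjusted p of 0.0367, 0.0402, 0.0285 and 0.00638.

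The second comparison asked the same of cells given the lincRNA siRNA. Tap1 rose 3.09-fold and Tapbp 1.59-fold, and no member fell. That was 2 of 10 members, against 1.82% of all features (1.5% rose and 0.326% fell). All 10 changes were positive, with a median of 0.49 against -0.01 for all features. The LPS arrays lay above the unstimulated ones for 7 of 10 genes, against 8.17% of all features (and 7.18% with all LPS arrays below); they overlapped for Tap2, B2m and Psme2.

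Tap1 was at 0.21, 0.37 and 0.12 with the lincRNA siRNA and LPS, and at -2.11, -1.09 and -0.99 with that siRNA alone. The change was 1.63 ± 0.27 (adjusted p = 0.0139), and the lowest LPS array was still above the highest unstimulated one. Tapbp was at 4.53, 4.73 and 4.66 with LPS, and at 3.64, 4.07 and 4.21 without, a change of 0.67 ± 0.14 (adjusted p = 0.0445). Psmb10 was at 6.08, 5.88 and 5.73 with LPS, and at 4.90, 5.71 and 5.73 without, a change of 0.45 ± 0.25 (adjusted p = 0.632). Its unstimulated arrays 2 and 3 were almost as high as the lowest LPS array. Psmb9 was at 3.35, 3.26 and 3.21 with LPS, and at 1.76, 3.00 and 2.94 without, a change of 0.71 ± 0.30 (adjusted p = 0.463). Psmb8 was at 4.53, 4.47 and 4.76 with LPS, and at 3.28, 4.29 and 4.45 without, a change of 0.58 ± 0.32 (adjusted p = 0.622). For both, array 1 without LPS was more than a log2 unit below arrays 2 and 3, which came close to the LPS arrays.

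H2-K1 was at 6.19, 6.18 and 6.17 with LPS, and at 5.25, 5.98 and 6.02 without, a change of 0.43 ± 0.19 (adjusted p = 0.486). B2m was at 7.38, 7.22 and 7.29 with LPS, and at 6.65, 7.17 and 7.25 without, a change of 0.27 ± 0.16 (adjusted p = 0.668). Tap2 was at 3.31, 3.67 and 3.65 with LPS, and at 2.46, 3.36 and 3.24 without, a change of 0.52 ± 0.22 (adjusted p = 0.454). All 3 again had 1 low unstimulated array. Psme1 was at 5.20, 5.11 and 5.36 with LPS, and at 4.55, 4.98 and 4.99 without, a change of 0.38 ± 0.14 (adjusted p = 0.329). Psme2 was at 7.10, 7.28 and 6.85 with LPS, and at 6.62, 6.83 and 7.11 without, a change of 0.22 ± 0.16 (adjusted p = 0.77). Neither subunit of the activator passed. With all probes tested one by one, the other Psme2 probes gave 0.26 ± 0.15 (adjusted p = 0.674) and 1.68 ± 0.43 (adjusted p = 0.118). The larger change was again from the probe with the long span. The second H2-K1 probe gave 0.53 ± 0.16 (adjusted p = 0.251).

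Without array 1 of the lincRNA siRNA alone, the median change of the 10 genes in lincRNA-siRNA cells was 0.23. Only Tap1 passed, at 1.27 (adjusted p = 0.00576), in a fit that called 325 of 23909 features. Tapbp was 0.50 (adjusted p = 0.0663). Psmb9 was then 0.30 and Psmb10 0.18. The Tapbp call was lost in 11 of the 12 fits that left out 1 array, with changes of 0.50 to 0.73 and adjusted p of 0.0663 to 0.177. The Tap1 call was lost without array 1 or 2 of the lincRNA siRNA with LPS, at 1.64 (adjusted p = 0.0538) and 1.56 (adjusted p = 0.0674). With slide as a block, Tap1 was 1.60 (adjusted p = 0.248, and 0.498 on slide 2 alone) and Tapbp 0.55 (0.656 and 0.848). All 10 stayed positive and 0 of 10 passed. Of all features, 157 passed with slide as a block and 46 on slide 2 alone.

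**Figure D2:**
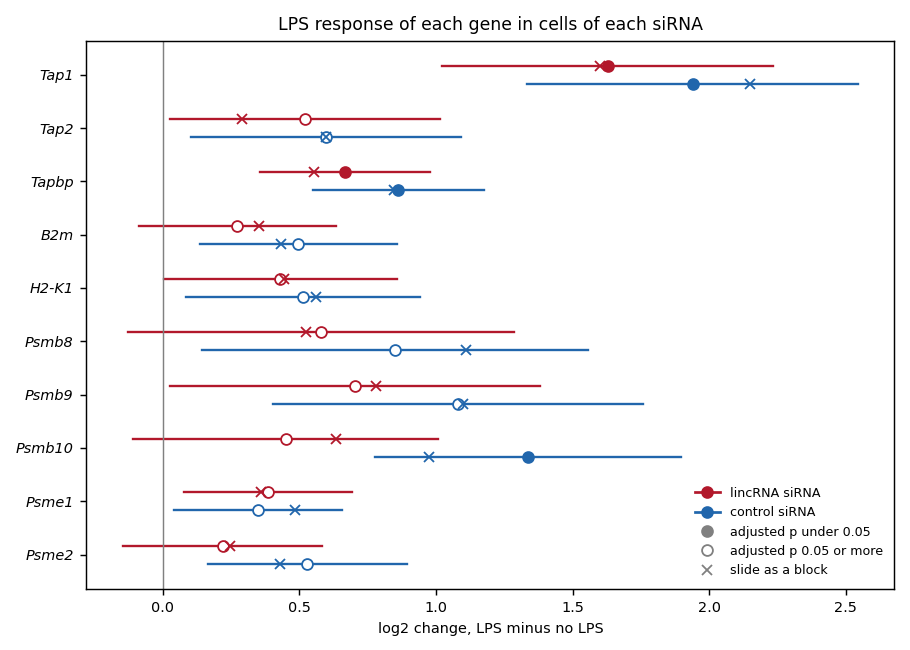
Log2 change of each gene with LPS (horizontal axis) in lincRNA-siRNA cells (red) and control-siRNA cells (blue), with 95% confidence intervals of the limma fit of 12 arrays. Filled circles passed an adjusted p of 0.05 and crosses are the estimates with slide as a block. Tap1 is farthest to the right for both siRNAs, at 1.63 and 1.94, and all plotted estimates lie right of 0.

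Genes that act with these 10 were read from lists. Of 17 other class I heavy chains and relatives tested, 2 rose with LPS in control-siRNA cells, H2-Q10 (0.82, adjusted p = 0.0444) and H2-T23 (0.74, adjusted p = 0.0387), and 0 fell; 0 passed in lincRNA-siRNA cells. At an unadjusted p under 0.05, 11 of the 17 were higher and 0 lower with LPS in lincRNA-siRNA cells, and 13 were higher and 1 lower in control-siRNA cells. The share of all features below that p, in either direction, was 10.1% in lincRNA-siRNA cells and 24% in control-siRNA cells. The median change of the list was 0.48 in both. H2-D1, the classical heavy chain beside H2-K1, changed by 0.45 with LPS in lincRNA-siRNA cells (adjusted p = 0.231) and by 0.36 in control-siRNA cells (adjusted p = 0.162). H2-Q10 is best known from liver. Its probe, and those of the other heavy chains in this list, may share sequence with one another and with H2-K1, which was not tested. The counts of this list may thus not be of separate genes. Of 16 genes of peptide loading and trimming, Lnpep, an aminopeptidase that trims peptides in endosomes, rose in control-siRNA cells (0.45, adjusted p = 0.0362) and 0 passed in lincRNA-siRNA cells. At an unadjusted p under 0.05, 2 of the 16 were higher and 0 lower in lincRNA-siRNA cells, near the 10.1% of all features, and 3 were higher and 2 lower in control-siRNA cells, against 24%. The medians of that list were 0.06 in lincRNA-siRNA cells and 0.14 in control-siRNA cells.

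The constitutive proteasome showed no change past the test. Of 11 constitutive catalytic subunits and regulators of the proteasome core tested, 0 passed with LPS under either siRNA, and 0 in lincRNA-siRNA cells and 2 in control-siRNA cells had an unadjusted p under 0.05, against 10.1% and 24% of all features. The medians were -0.01 in lincRNA-siRNA cells and -0.08 in control-siRNA cells. In control-siRNA cells Psmb5, which Psmb8 replaces, changed by -0.03, Psmb6, which Psmb9 replaces, by 0.29, and Psmb7, which Psmb10 replaces, by -0.10. Their adjusted p-values were 0.874, 0.189 and 0.657. No test compared each pair, and the log2 changes of the inducible partners were 0.85, 1.08 and 1.34. Of 8 class II presentation genes tested, 0 passed by limma and 0 had an unadjusted p under 0.05 with LPS, with medians of -0.10 in lincRNA-siRNA cells and 0.07 in control-siRNA cells.

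Of 13 transcriptional regulators of class I genes, 7 rose and 1 fell with LPS in control-siRNA cells, and 4 rose and 0 fell in lincRNA-siRNA cells. The shares of all features that passed were 3.21% higher and 1.88% lower for the control siRNA, and 1.5% higher and 0.326% lower for the lincRNA siRNA. Irf1, an interferon regulatory factor, was at 4.55, 4.47 and 3.98 with the lincRNA siRNA and LPS, and at 0.36, 1.09 and 1.22 with that siRNA alone. It was at 3.85, 4.46 and 4.45 with the control siRNA and LPS, and at 0.91, 1.02 and 0.88 with the control siRNA alone. The LPS arrays stood more than 2 log2 units above the others, with changes of 3.44 (adjusted p = 0.000117) and 3.32 (adjusted p = 9.93e-05). Stat2 rose by 1.93 (adjusted p = 0.0106) in lincRNA-siRNA cells and by 2.23 (adjusted p = 0.00274) in control-siRNA cells. Irf9 rose by 1.22 (adjusted p = 0.0361) in lincRNA-siRNA cells and by 1.82 (adjusted p = 0.00233) in control-siRNA cells. Stat2 and Irf9 act in type I interferon signalling. Nlrc5, the transactivator of class I genes, was at 0.54, 0.38 and 0.01 with the lincRNA siRNA and LPS, and at -1.38, -0.40 and -0.29 with that siRNA alone, a change of 1.00 (adjusted p = 0.301). It was at -0.63, 0.44 and 0.33 with the control siRNA and LPS, and at -1.55, -1.64 and -1.99 with the control siRNA alone, and rose by 1.77 (adjusted p = 0.0177). Nlrc5 thus had the same low array 1 and higher arrays 2 and 3 with the lincRNA siRNA alone as the 10 genes. The gene that fell in control-siRNA cells, named after its value was seen, was Rfxap, a subunit of the RFX complex (-0.88, adjusted p = 0.0352). No gene of these 5 lists passed in either comparison between siRNAs or in the interaction, where the share of all features called was 0%.

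The 10 genes followed one another across the arrays. The Pearson correlation of each gene with the mean standardised profile of the other 9 was 0.841 for Psme2 to 0.989 for Psmb9 over 12 arrays, which share the LPS groups and are given as a description. The 5 genes outside the set whose profile was most like the mean of the 10 were Csprs (0.992), Oasl2 (0.99), Oas3 (0.99), Lgals9 (0.99) and Trim30a (0.989), again over 12 arrays. Trim30a, a tripartite motif protein, was at 0.15, 0.20 and 0.04 with the lincRNA siRNA and LPS, and at -5.68, -1.21 and -0.71 with that siRNA alone. It was at -1.74, 0.38 and 0.36 with the control siRNA and LPS, and at -5.94, -4.65 and -5.37 with the control siRNA alone. Oasl2, of the oligoadenylate synthetase family, was at 2.54, 2.26 and 2.57 with the lincRNA siRNA and LPS, and at -2.90, 0.96 and 1.19 with that siRNA alone. It was at 1.41, 2.60 and 2.68 with the control siRNA and LPS, and at -2.95, -2.08 and -2.52 with the control siRNA alone. Both had 1 array of the lincRNA siRNA alone near the unstimulated controls and 2 arrays several log2 units above it. Both were chosen for their likeness to the 10 genes over these same arrays, so the split in them is no separate evidence.

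**Figure D3:**
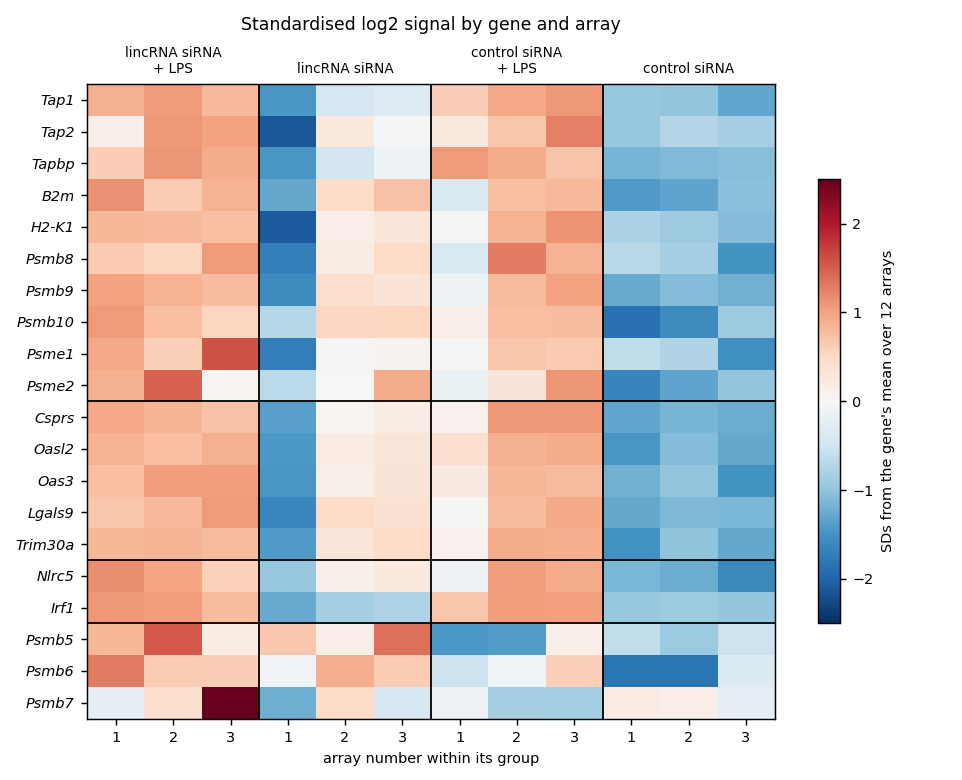
Signal of each gene (rows) on each array (columns), as SDs from the gene's mean over 12 arrays, from blue (low) to red (high); lines part the 10 genes, the 5 genes most like them, 2 regulators and 3 constitutive proteasome subunits. In the block of the lincRNA siRNA alone, array 1 is blue for all of the 10 genes, whose mean there is -1.47, and arrays 2 and 3 are paler, with means of 0.12 and 0.29.

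The third comparison set the 2 siRNAs against each other in LPS-stimulated cells. None of the 10 genes passed (0% of all 23909 features did) and 0 of 10 had an unadjusted p under 0.05, against 4.7% of all features. The differences, lincRNA siRNA minus control siRNA, ran from -0.01 for Tapbp to 0.20 for Psmb9, with a median of 0.10 against 0.02 for all features. That median was 0.00106 without array 1, and 0.16 without array 3, of the control siRNA with LPS. It was 0.06 with normexp background correction, 0.05 with array weights and 0.03 with quantile normalization or the authors' values. The second H2-K1 probe differed by 0.31. The arrays of the 2 siRNAs overlapped for all 10 genes, while 7.39% of all features lay wholly higher and 4.06% wholly lower with the lincRNA siRNA. The 95% confidence interval was -0.58 to 0.63 for Tap1 and -0.32 to 0.30 for Tapbp. It was -0.41 to 0.71 for Psmb10 and -0.62 to 0.79 for Psmb8. With 3 arrays a group, differences inside these intervals remain compatible with the data.

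The fourth comparison did the same in unstimulated cells. No member passed (0% of all features did) but all 10 differences were positive, from 0.08 for Tap2 to 1.04 for Psmb10, with a median of 0.35 against 0.07 for all features. An unadjusted p under 0.05 was found for 3 of 10, Psmb10, Psme2 and B2m, and for 18.3% of all features. Psmb10 was at 4.90, 5.71 and 5.73 with the lincRNA siRNA, and at 4.13, 4.32 and 4.77 with the control siRNA. These arrays did not overlap, and the difference was 1.04 (95% confidence interval 0.48 to 1.59, adjusted p = 0.2). Psme2 was at 6.62, 6.83 and 7.11 with the lincRNA siRNA, and at 6.32, 6.42 and 6.53 with the control siRNA, also without overlap, and the difference was 0.43 (0.07 to 0.80, adjusted p = 0.237). The second Psme2 probe did overlap, at 4.26, 4.73 and 4.71 with the lincRNA siRNA and 4.58, 4.50 and 4.22 with the control siRNA, a difference of 0.14, and the third differed by -0.06. Psmb10 and Psme2, by its brightest probe, were the 2 of 10 genes whose lincRNA-siRNA arrays all lay higher, against 12.1% of all features (9.28% all lay lower). B2m differed by 0.37 (0.01 to 0.73, adjusted p = 0.269) and Psmb9 by 0.57 (-0.10 to 1.25, adjusted p = 0.326), with overlapping arrays.

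Without array 1 of the lincRNA siRNA alone, the median difference in unstimulated cells was 0.55, and Psmb10 passed at 1.31 (adjusted p = 0.0374); Psmb9 was 0.98 (adjusted p = 0.0677), Psmb8 0.72 (0.198) and Tap1 0.70 (0.109). That fit called 130 of the 23909 features. Psmb10 also passed, at 1.22 (adjusted p = 0.0223), without control-siRNA array 3, where 2544 of 23909 features were called and the median of the 10 genes was 0.23. The control-siRNA arrays left in that fit were those on slide 1, while all lincRNA-siRNA arrays without LPS lay on slide 2. There siRNA and slide cannot be told apart. The median was 0.20 without array 2 and 0.13 without array 3 of the lincRNA siRNA alone. With slide as a block Psmb10 was 0.67 (adjusted p = 1), and all 10 differences stayed positive.

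**Figure D4:**
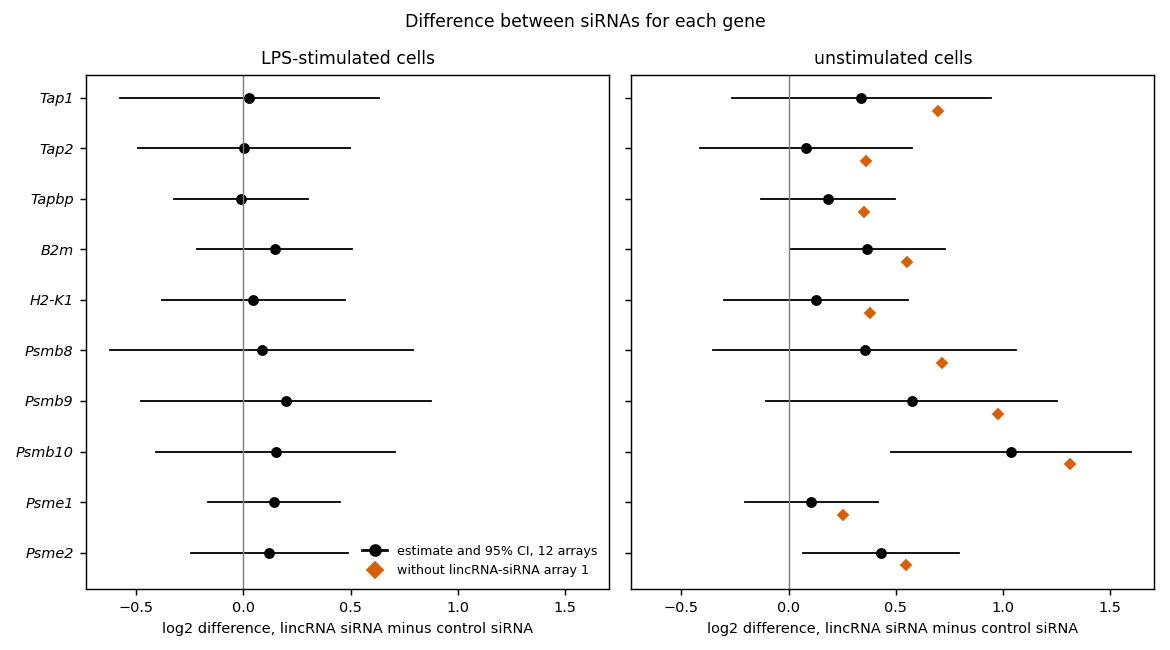
Log2 difference of each gene between siRNAs (horizontal axis, lincRNA siRNA minus control siRNA) in LPS-stimulated cells (left) and unstimulated cells (right), with 95% confidence intervals of the fit of 12 arrays; diamonds are estimates without array 1 of the lincRNA siRNA alone. On the left all intervals cross 0; on the right every estimate lies above 0 and Psmb10 is highest, at 1.04 and, without that array, 1.31.

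The interaction tested whether the LPS response differed between the siRNAs. No member passed (0% of all features did), with 1 of 10 below an unadjusted p of 0.05, against 3.7% of features. The LPS change was smaller with the lincRNA siRNA for 9 of 10 genes, with a median difference of -0.25 against -0.04 for all features. For Psmb10 the LPS change was 0.45 with the lincRNA siRNA and 1.34 with the control siRNA, a difference of -0.89 (95% confidence interval -1.68 to -0.10, adjusted p = 0.895). With slide as a block, or on slide 2 alone, this difference was -0.34 (adjusted p = 1). Tap1 differed by -0.31 (-1.17 to 0.54) and Psme1 by 0.04 (-0.40 to 0.47). Without array 1 of the lincRNA siRNA alone the median was -0.42 and Psmb10 was -1.16 (adjusted p = 0.578). In that fit 0 members and 3 of 23909 features passed. The median was -0.15 without array 2 and -0.09 without array 3 of that group. The LPS contrasts and the siRNA contrasts share arrays, and the differences in unstimulated cells enter the interaction directly.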

How the data were processed

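Total RNA of 12 samples labelled with Cy3 was hybridised to single-colour arrays. The deposited scanner files give spot intensity from Feature Extraction 10.7.1.1, background-subtracted and detrended on each array with probes placed on mm9, per the file headers. The authors' value table holds log2 values per probe that share a median of 4.75. No source used here gives its normalization. Sorted, its columns differed from the first by at most 0.00155, or 0.332 for array 3 of the lincRNA siRNA alone. Columns are alike in this way after quantile normalization. These values entered only an alternative, whose member counts and medians nearly repeated those of the quantile one. Here, outlier-flagged spots were left out (89 missing values among kept probes), spots of 1 probe were averaged, and values were log2 processed intensity minus the 75th percentile of the array. A probe was kept when every array of some group showed it well above background (33151, 59.5%), and the brightest kept probe stood for a gene. Symbols were updated for 2892 probes by accession. The 4 group means were estimated together by limma 3.58.1 (R 4.3.3; 8 residual degrees of freedom), with Benjamini-Hochberg adjustment over all 23909 features and a threshold of 0.05. The fit was tested on simulated data. Alternatives were quantile normalization, normexp background correction, the authors' values, other filters, the mean of probes, slide and replicate blocks, slide 2 alone, array weights, and each array left out. Named genes were all 10 members, direct counterparts, list genes that passed with LPS (the 4 largest changes) and the 5 most similar profiles; 1 list gene that the rule would name is not reported here. The members and lists were chosen with earlier results of these data known. Version 1.17.8 of data.table read the files, and plotting used matplotlib 3.10.9 under Python 3.11.15.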

Additional observations from a re-analysis of the deposited data

How the results depend on the processing

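The 22 alternatives gave 1100 recomputed member values. Every log2 change with LPS stayed positive, at 0.28 to 2.15 in control-siRNA cells and 0.09 to 1.83 in lincRNA-siRNA cells, while the number of calls moved. Members passing with LPS in control-siRNA cells numbered 3, against 5 with normexp (990 of 23909 features called) and 9 with array weights (6044 of 23909). They numbered 0 with slide as a block (227 features) or slide 2 alone (49 features), and 2 to 7 with 1 array left out (513 to 3930 features). The 3930 were called without control-siRNA array 3, where LPS and slide cannot be told apart. In lincRNA-siRNA cells they numbered 2, against 1 with quantile normalization, normexp or the authors' values (425 to 435 features) or no filter (302 features). They numbered 0 with slide as a block (157 features) or slide 2 alone (46 features), and 0 to 2 with 1 array left out (244 to 471 features). In unstimulated cells the siRNA comparison gave 0, but 3 with array weights (B2m, Psmb10 and Psme2), where 4430 of 23909 features were called. It gave 0 to 1 with 1 array left out (0 to 2544 features). The 2544 were also called without control-siRNA array 3, where siRNA and slide cannot be told apart. Over all features the counts were 1216 (49 to 6044) and 436 (46 to 479) for LPS in control-siRNA and lincRNA-siRNA cells, 0 (0 to 4430) for the siRNA without LPS and 0 (0 to 2) with LPS, and up to 3930, 471, 2544 and 0 with 1 array left out. The interaction called 0, and up to 348 with 1 array left out, again control-siRNA array 3. Whether replicate numbers pair the arrays could not be settled with 3 arrays a group. Residual correlations of same-numbered arrays were -0.30 to 0.47 (median 0.09, 8 of 18 over 0.1). Those of differently numbered arrays were -0.47 to 0.47 (median 0.02, 14 of 36 over 0.1). With replicate number as a block 3 and 1 members passed with LPS in control-siRNA and lincRNA-siRNA cells (1524 and 370 features), 0 in the other comparisons. Small values that were not called changed sign. With LPS, the siRNA difference of Tap2 was -0.0239 (quantile, authors' values), -0.036 (normexp), -0.229 (slide block, slide 2 alone) and -0.0626 (array weights), that of H2-K1 -0.0377 (quantile, authors' values) and that of Tap1 -0.029 (array weights). With 1 array left out these ran from -0.11 to 0.13 for Tap1, -0.0901 to 0.12 for Tap2, -0.0569 to 0.0466 for Tapbp, -0.0658 to 0.12 for H2-K1, -0.18 to 0.27 for Psmb8 and -0.0122 to 0.34 for Psmb9. Without LPS they ran from -0.0908 to 0.36 for Tap2 and -0.00767 to 0.38 for H2-K1. The Psme1 interaction was -0.0175 (quantile), -0.0172 (authors' values), -0.0335 (normexp) and -0.122 (slide block, slide 2 alone), and -0.11 to 0.11 with 1 array left out, against -0.36 to 0.093 for Tap2 and -0.33 to 0.0533 for H2-K1. The cause was not tested. With 3 arrays a group, any difference inside a confidence interval given above remains compatible with the data.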
